A study of Mus musculus with 12 samples.

Results

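Sertoli cell genes were followed in sorted round spermatids as a measure of how much Sertoli RNA the sorted cells carried. The set comprised 9 genes (Clu, Amhr2, Dhh, Cldn11, Rhox5, Sox9, Gata4, Wt1 and Fshr), chosen by name, and all 9 were among the 28643 genes used. Round spermatids, the haploid germ cells that follow meiosis, came from 8-week-old male mice and were sorted by flow cytometry in cycloheximide, which holds ribosomes on mRNA. The controls were Igf2bp3+/- mice and the knockouts were Igf2bp3-/- mice, which carry a Cas9 frameshift in the m6A-binding protein IGF2BP3 on both alleles, so that the controls carry the mutation on 1 allele. Per the study's methods, knockout males with impaired fertility were the ones taken for study. RNA-seq measured the total input, and RNC-seq (ribosome nascent-chain complex sequencing) measured mRNAs on 4 or more ribosomes, with 3 replicates of each genotype in each assay and 12 libraries in all.

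Sertoli cells are the somatic nurse cells of the seminiferous tubule. They surround germ cells at every stage, form the blood-testis barrier with tight junctions, respond to follicle-stimulating hormone and testosterone, and take up the residual cytoplasm that spermatids shed. The transcription factors SOX9, WT1 and GATA4 maintain Sertoli identity, and Fshr, the receptor for follicle-stimulating hormone, is restricted to Sertoli cells in the testis. Clu, a secreted chaperone, is a major Sertoli product but is made by many other cell types. Amhr2, the receptor for anti-Müllerian hormone, and Gata4 are also expressed by Leydig cells, the steroid-producing cells between the tubules.

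For 5 of the 9 genes a RefSeq start region on GRCm38.p6 was at hand (Cldn11, Dhh, Rhox5, Amhr2 and Fshr). The 250 bases before the start of Amhr2 and Fshr are shown because these were the most and the least abundant of the 5 in RNA-seq. Capitals mark CAAGGTC in Amhr2, the core bound by the nuclear receptor NR5A1, and CACGTG in Fshr, an E-box.
Amhr2, chr15:102445117-102445366, plus strand: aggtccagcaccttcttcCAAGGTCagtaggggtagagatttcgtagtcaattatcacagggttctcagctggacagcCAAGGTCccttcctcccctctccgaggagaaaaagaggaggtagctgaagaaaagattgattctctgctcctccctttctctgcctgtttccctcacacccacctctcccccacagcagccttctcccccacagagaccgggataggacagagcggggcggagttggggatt
Fshr, chr17:89200676-89200925, minus strand: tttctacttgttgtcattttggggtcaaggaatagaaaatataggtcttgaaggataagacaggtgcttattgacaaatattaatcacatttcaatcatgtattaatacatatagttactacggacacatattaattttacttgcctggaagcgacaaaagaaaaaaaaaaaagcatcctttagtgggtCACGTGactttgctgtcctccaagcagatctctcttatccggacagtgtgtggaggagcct
CAAGGTC, searched on both strands, began 232 and 172 bases upstream of the Amhr2 start and was present in 3.32% of the 32851 windows of 250 bases in the RefSeq set. CACGTG, which reads the same on both strands, began 61 bases upstream of the Fshr start and was present in 6.02% of windows. A motif of GATA factors, searched on both strands by the letters AGATAA, was found in 9.99% of windows and in none of the 5 member windows. A motif of SOX factors, searched on both strands by the letters ACAAAG, was found in 16.5% of windows and likewise in none of the 5. Cldn11, Dhh and Rhox5 held no match to any of the 4 motifs. The RefSeq window of Rhox5, chrX:37754358-37754607, lies upstream of the gene coordinates given for Rhox5 below and does not adjoin them. The marked motifs did not overlap each other, and a match describes letters only.

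The transcript of the targeted gene, Igf2bp3, was detected in every library, at 33.4 to 38.6 FPKM (a fragment density scaled for transcript length and library size) in Igf2bp3+/- RNA-seq and 31.4 to 32.5 FPKM in Igf2bp3-/- RNA-seq. RNC-seq gave 31.4 to 43.0 FPKM and 40.6 to 43.1 FPKM. A frameshift need not remove the transcript, so these levels do not check the genotype labels. Round spermatid markers (6 genes, among them Acrv1 and Catsper3) summed to between 673 and 1289 FPKM over the 12 libraries, and spermatocyte markers (6 genes) to between 71.4 and 199 FPKM. The 9 Sertoli cell genes together summed to between 1.98 and 9.76 FPKM. Read depth is unknown, but the lowest values of single-transcript genes gave a rough estimate of what 1 fragment is worth, from which the deepest library was Igf2bp3-/- RNA-seq replicate 1 and the others had relative depths of 0.375 to 0.564. Of those low values, 32.1% to 43.6% per library lay within 0.1 of a whole number of fragments, so the fragment numbers given here are approximate and cover counting only.

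The markers that define Sertoli cells were near the lowest measurable level. In the Igf2bp3+/- RNA-seq libraries, Sox9, Wt1, Gata4 and Fshr averaged 0.127, 0.0790, 0.0769 and 0.0245 FPKM, which placed them between the 11.9 and the 31.7 percentile of all genes. Clu averaged 3.12 ± 0.455 FPKM (SD, n = 3), at the 69.7 percentile, and Amhr2 1.17 ± 0.183 FPKM, at the 58.6 percentile. Clu and Amhr2 together made up 79.4% to 81.2% of the summed FPKM of the 9 genes in Igf2bp3+/- RNA-seq and 85.3% to 92.3% in Igf2bp3-/- RNA-seq. The descending order in Igf2bp3+/- RNA-seq was Clu, Amhr2, Dhh, Rhox5, Cldn11, Sox9, Wt1, Gata4 and Fshr. Clu did not overlap Amhr2, nor Amhr2 Dhh, whereas from Dhh downward each gene overlapped the next in the order. FPKM is a level per length, so genes can be set side by side on it.

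**Figure D1:**
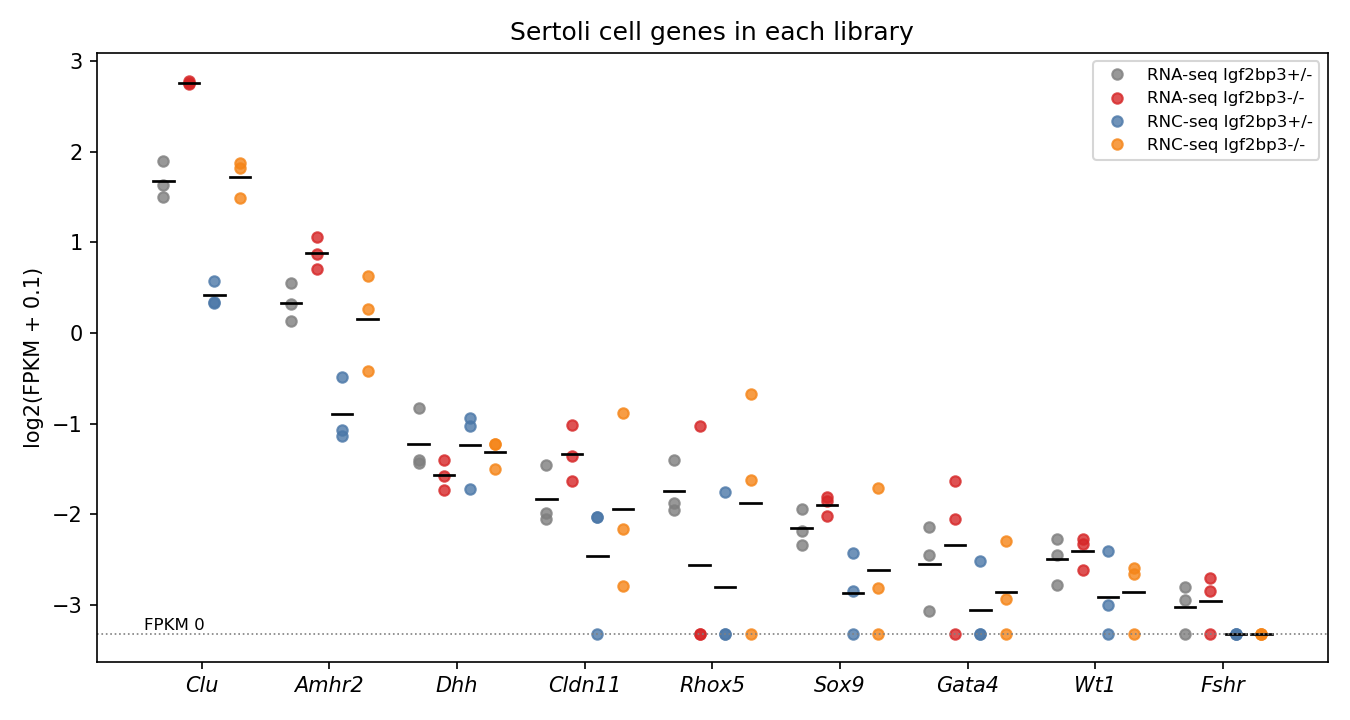
Level of each Sertoli cell gene in each of the 12 libraries, as log2(FPKM + 0.1) on the vertical axis, with genes in descending order of their mean over all libraries. Points are libraries, black bars are group means (n = 3) and the dotted line is an FPKM of 0. Clu and Amhr2 have the highest means over all libraries, Fshr is at 0 in all 6 RNC-seq libraries, and the lower genes reach the line in 1 or more libraries, apart from Dhh.

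Among the nuclear regulators, Sox9 (chr11:112782224-112787760, plus strand, GRCm38), which drives Sertoli fate and stays on in the adult cell, was measured at 0.0984, 0.121 and 0.161 FPKM in Igf2bp3+/- RNA-seq and 0.177, 0.147 and 0.185 FPKM in Igf2bp3-/- RNA-seq. RNC-seq gave 0, 0.0858 and 0.0394 FPKM in Igf2bp3+/- and 0.207, 0 and 0.0430 FPKM in Igf2bp3-/-. The genotypes overlapped in both assays. The RNA-seq values rest on roughly 9 to 36 fragments per library. The log2 change in RNA-seq, as the difference of log2(FPKM + 0.1) between Igf2bp3-/- and Igf2bp3+/-, was 0.26 (SE 0.30, 95% interval -0.44 to 0.95, adjusted p = 0.720 by limma with Benjamini-Hochberg adjustment). In RNC-seq the mean of Sox9 was under the filter of 0.1 FPKM and it was not tested.

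Wt1 (chr2:105126529-105173616, plus strand), a zinc finger factor needed for Sertoli polarity, was at 0.0838, 0.0461 and 0.107 FPKM in Igf2bp3+/- RNA-seq and 0.107, 0.1001 and 0.0630 FPKM in Igf2bp3-/- RNA-seq. Its RNC-seq values were 0.0884, 0.0251 and 0 FPKM in Igf2bp3+/- and 0, 0.0658 and 0.0591 FPKM in Igf2bp3-/-. The ranges of the genotypes lay almost on top of each other. Gata4 (chr14:63198922-63271692, minus strand), a factor shared with Leydig cells, was at 0.0836, 0.0193 and 0.128 FPKM in Igf2bp3+/- RNA-seq and 0.141, 0.223 and 0 FPKM in Igf2bp3-/- RNA-seq. RNC-seq gave 0.0754, 0 and 0 FPKM in Igf2bp3+/- and 0.104, 0 and 0.0305 FPKM in Igf2bp3-/-. Gata4 was thus listed at 0 in 4 of 12 libraries, and neither gene passed the filter in either assay. Summed over Sox9, Wt1 and Gata4, RNA-seq gave 0.186 to 0.396 FPKM in Igf2bp3+/- and 0.248 to 0.470 FPKM in Igf2bp3-/-, ranges that overlap.

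Fshr (chr17:88984952-89200675, minus strand), whose start region carries the E-box shown above, was the lowest of the 9. It was at 0, 0.0430 and 0.0304 FPKM in Igf2bp3+/- RNA-seq and 0.0388, 0 and 0.0535 FPKM in Igf2bp3-/- RNA-seq, which is roughly 0 to 4 fragments per library, and it was listed at 0 in all 6 RNC-seq libraries. Fshr did not pass the filter, and a genotype difference in it was not detectable at this depth. The other receptor of the set, Amhr2 (chr15:102445367-102454633, plus strand), was at 1.36, 0.998 and 1.15 FPKM in Igf2bp3+/- RNA-seq and 1.73, 1.54 and 1.99 FPKM in Igf2bp3-/- RNA-seq. In RNC-seq it was at 0.354, 0.618 and 0.375 FPKM in Igf2bp3+/- and 1.45, 1.10 and 0.648 FPKM in Igf2bp3-/-. All 3 Igf2bp3-/- libraries lay above all 3 Igf2bp3+/- libraries in each assay, with RNC-seq separated by a small gap. Its log2 change was 0.55 (SE 0.18, 95% interval 0.13 to 0.97) in RNA-seq, at an unadjusted p = 0.0167 and an adjusted p = 0.234 by limma. In RNC-seq it was 1.06 (SE 0.37, 95% interval 0.25 to 1.86), at an unadjusted p = 0.0146 and an adjusted p = 0.716 by limma. Amhr2 passed the adjusted limit in neither assay. Its values rest on roughly 50 to 162 fragments in RNA-seq and 12 to 66 in RNC-seq.

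Clu (chr14:65968483-65981547, plus strand), the secreted chaperone clusterin, was the only member past the limit in a genotype comparison, and it rose in RNA-seq. It was at 3.63, 3.01 and 2.74 FPKM in Igf2bp3+/- RNA-seq and 6.63, 6.79 and 6.66 FPKM in Igf2bp3-/- RNA-seq. The RNC-seq libraries held 1.39, 1.17 and 1.16 FPKM in Igf2bp3+/- and 3.56, 3.42 and 2.71 FPKM in Igf2bp3-/-. No library of one genotype reached the range of the other in either assay. The ratio of group means was 2.14 in RNA-seq and 2.60 in RNC-seq. The log2 change was 1.08 (SE 0.14, 95% interval 0.78 to 1.39, adjusted p = 0.0201 by limma) in RNA-seq and 1.31 (SE 0.26, 95% interval 0.74 to 1.87, adjusted p = 0.162 by limma) in RNC-seq. The values rest on roughly 136 to 583 fragments in RNA-seq and 39 to 158 in RNC-seq. The size of the RNA-seq change was between 0.91 and 1.19 over 16 alternatives, and its adjusted p was between 0.00835 and 0.147. Leaving out Igf2bp3-/- replicate 1, 2 or 3, or Igf2bp3+/- replicate 2, ended the call (adjusted p = 0.120, 0.129, 0.147 and 0.0932 by limma). It was also lost without the filter, without the intensity trend and with the replicate number as a block (replicate block; adjusted p = 0.0820, 0.0729 and 0.137 by limma). A fit over all 12 libraries placed the RNC-seq change past the limit (adjusted p = 0.00359 by limma), but treats the assays as independent although, by the methods, both were made from the same extracts.

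Among the junction and signalling genes, Cldn11 (chr3:31149920-31164324, plus strand), the main claudin of Sertoli tight junctions, was at 0.265, 0.152 and 0.142 FPKM in Igf2bp3+/- RNA-seq and 0.395, 0.292 and 0.222 FPKM in Igf2bp3-/- RNA-seq. Its RNC-seq values were 0.144, 0.144 and 0 FPKM in Igf2bp3+/- and 0.0450, 0.444 and 0.124 FPKM in Igf2bp3-/-. The genotypes overlapped in both assays. Its log2 changes were 0.50 (95% interval -0.22 to 1.21, adjusted p = 0.472 by limma) in RNA-seq and 0.52 (95% interval -0.78 to 1.83, adjusted p = 0.897 by limma) in RNC-seq.

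Dhh (chr15:98891152-98898540, minus strand), the hedgehog ligand by which Sertoli cells signal to Leydig and peritubular cells, was the tested member with a negative value in both assays. It was at 0.463, 0.280 and 0.271 FPKM in Igf2bp3+/- RNA-seq and 0.236, 0.280 and 0.201 FPKM in Igf2bp3-/- RNA-seq. In RNC-seq it was at 0.421, 0.391 and 0.204 FPKM in Igf2bp3+/- and 0.329, 0.255 and 0.328 FPKM in Igf2bp3-/-. The genotypes overlapped. The log2 changes were -0.35 (95% interval -1.002 to 0.31, adjusted p = 0.582 by limma) in RNA-seq and -0.08 (95% interval -0.93 to 0.76, adjusted p = 0.981 by limma) in RNC-seq. Of the exonic bases of Dhh, 12.4% are shared with Rhebl1 on the same strand and 25.2% with Gm49442 on the opposite strand, so its values are uncertain. The other 8 members had no exonic overlap with another gene.

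Rhox5 (chrX:37804842-37808876, plus strand), an X-linked homeobox gene that androgen induces in Sertoli cells, had values of opposite sign in RNA-seq and RNC-seq. It was at 0.159, 0.278 and 0.173 FPKM in Igf2bp3+/- RNA-seq and 0, 0.391 and 0 FPKM in Igf2bp3-/- RNA-seq. In RNC-seq it was at 0, 0 and 0.197 FPKM in Igf2bp3+/- and 0.225, 0 and 0.526 FPKM in Igf2bp3-/-. Rhox5 was listed at 0 in 5 of 12 libraries, its highest library corresponds to roughly 9 fragments, and the genotypes overlapped. The log2 changes were -0.81 (95% interval -2.21 to 0.58, adjusted p = 0.548 by limma) and 0.92 (95% interval -0.61 to 2.46, adjusted p = 0.834 by limma).

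**Figure D2:**
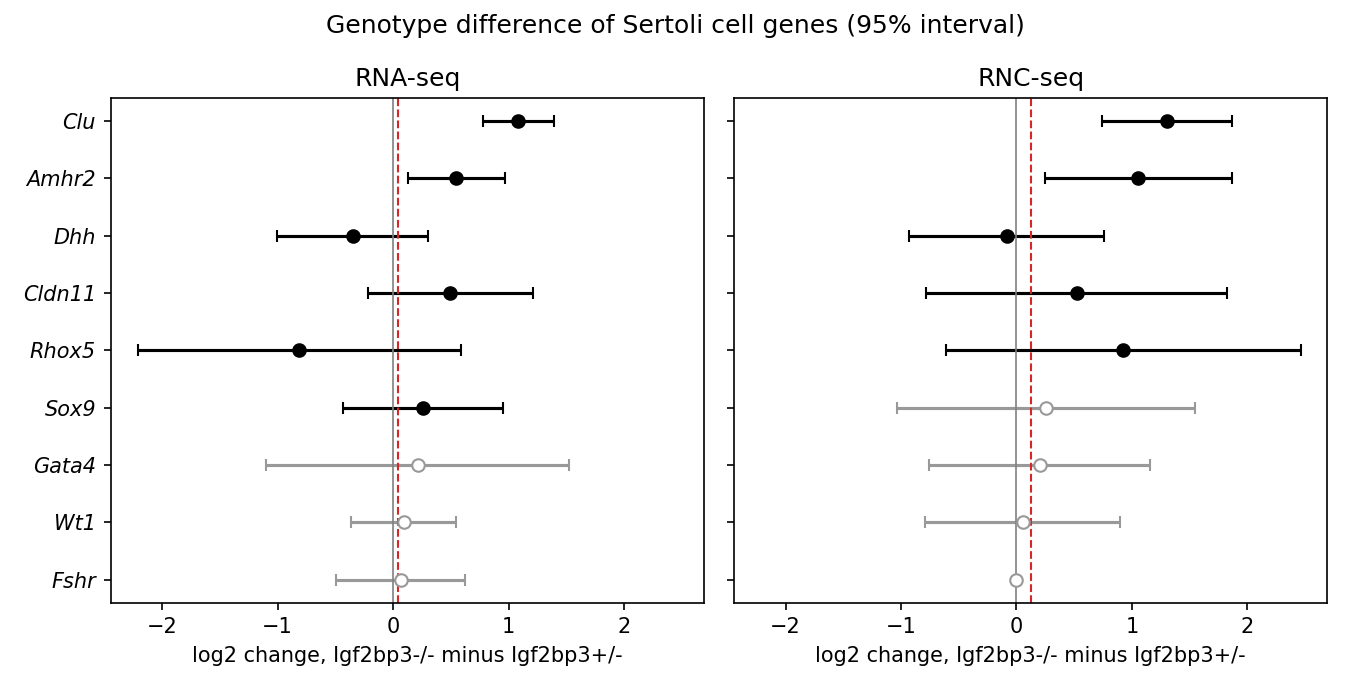
Genotype difference of each Sertoli cell gene, as log2 change of FPKM + 0.1 (Igf2bp3-/- minus Igf2bp3+/-, horizontal axis), in RNA-seq (left) and RNC-seq (right), with 95% intervals from limma. Filled points passed the filter of 0.1 FPKM, open grey points did not and come from a fit without it, and the dashed red line is the median of all genes tested (0.05 and 0.13); of the filled points only the intervals of Clu and Amhr2 lie wholly above 0.

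In counts, 1 of 6 tested members was past the adjusted limit in RNA-seq, in the higher direction, against 0.197% of the 20352 genes tested; this was Clu, whose call 7 of 16 alternatives ended. At an unadjusted p under 0.05, 2 of 6 (Clu and Amhr2) were higher against 10.4% of all genes, and the same pair was also the 2 of 6 whose libraries did not overlap, against 14.1% of all genes. In RNC-seq 0 of 5 tested members passed the adjusted limit (limma), against 0.0787% of 19051 genes called higher. There, 2 of 5 (again Clu and Amhr2) were higher at an unadjusted p under 0.05, against 5.36%, and 2 of 5 did not overlap, against 9.44%. No member was lower at an unadjusted p under 0.05 in either assay, for which the share of all genes lower was not counted. The median log2 change of the tested members was 0.38 in RNA-seq, where all genes had a median of 0.05, and over all 9 members without the filter it was 0.21. It was 0.92 in RNC-seq, which is the value of Rhox5, a gene at 0 in 3 of the 6 libraries, and it was 0.25 over all 9 members without the filter and 0.21 with a pseudocount of 1. There all genes had a median of 0.13, which became 0.01 after centring the libraries on their medians. With the libraries centred, the RNC-seq median of the tested members was 0.80. Rhox5 and Cldn11 passed the RNC-seq filter only through Igf2bp3-/-, with Igf2bp3+/- means of 0.0658 and 0.0962 FPKM. The 3 RNA-seq and 4 RNC-seq members that did not pass the filter are not in these counts. All 9 members together summed to 4.90 to 6.14 FPKM in Igf2bp3+/- RNA-seq and 9.37 to 9.76 FPKM in Igf2bp3-/- RNA-seq. In RNC-seq they summed to 1.98 to 2.47 and 4.47 to 5.92 FPKM, so the genotypes overlapped in neither assay. Clu and Amhr2 made up 70.5% to 92.3% of these sums. In RNA-seq the 7 members other than Clu and Amhr2 summed to 0.939 to 1.15 FPKM in Igf2bp3+/- and 0.724 to 1.43 FPKM in Igf2bp3-/-, ranges of which the second holds the first. In RNC-seq the same 7 summed to 0.440 to 0.729 FPKM and 0.764 to 1.11 FPKM, which do not overlap, although no single gene of the 7 separated the genotypes there. In Igf2bp3-/- RNC-seq, Rhox5 supplied 0.526 FPKM in replicate 3 and Cldn11 0.444 FPKM in replicate 2, on roughly 9 and 21 fragments.

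A wider list of Sertoli genes gave the context. It held 45 genes, of which 42 were in the table. In RNA-seq 32 were tested, 1 was past the limit and higher, against 0.197% of all genes, and 0 were lower. The median log2 change was 0.06 (0.13 over all 42 without the filter), where all genes tested had 0.05. The gene past the limit was Ctsl, the lysosomal protease cathepsin L, which Sertoli cells secrete but most other cells also make. Ctsl was at 0.418, 0.562 and 0.719 FPKM in Igf2bp3+/- and 1.54, 1.73 and 2.00 FPKM in Igf2bp3-/-, a log2 change of 1.497 (SE 0.22, adjusted p = 0.0453 by limma). At an unadjusted p under 0.05, 8 of the 32 were higher, against 10.4% of all genes, and 0 lower, and 5 of those 8 were among the 11 tested secreted and transport genes. These 5 were Ctsl, Apoe, Sparc, Cst9 and Serpina5. Cxcl12 and Nr0b1, also among the 8, passed the filter only through Igf2bp3-/-, with Igf2bp3+/- means of 0.0706 and 0.0959 FPKM. The log2 changes of Sparc, Cst9 and Serpina5 were 1.02, 0.66 and 0.70 in RNA-seq (adjusted p = 0.102, 0.161 and 0.233 by limma). In RNC-seq they were 1.02, 0.90 and 1.69 (adjusted p = 0.614, 0.735 and 0.559 by limma). All 5 were also higher at that unadjusted limit in RNC-seq. Of the wider list, 29 were tested in RNC-seq and 0 passed the adjusted limit (limma). There, 8 were higher at an unadjusted p under 0.05, against 5.36% of all genes, and 0 were lower. Of these 8, Cxcl12 and Serpina5 passed the filter only through Igf2bp3-/-, with Igf2bp3+/- means of 0 and 0.0749 FPKM. The median there was 0.44 (0.28 over all 42 without the filter), where all genes tested had 0.13. Summed, the 42 genes were at 66.1 to 70.0 FPKM in Igf2bp3+/- RNA-seq and 73.5 to 78.3 FPKM in Igf2bp3-/- RNA-seq. RNC-seq gave 59.1 to 64.8 and 69.4 to 94.8 FPKM, so the sums overlapped in neither assay. In RNA-seq 9 of 32 genes were higher without overlap, against 14.1% of all genes, and 2 were lower. In RNC-seq 12 of 29 were higher, against 9.44%, some having passed the filter only through Igf2bp3-/-.

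The 2 most abundant genes of each of the 4 sub-lists did not pass the adjusted limit in either assay (limma). Of the hormone and growth signals, Nrtn, the growth factor neurturin, had a log2 change of 0.03 in RNA-seq and Inha, the inhibin alpha subunit, 0.06 (adjusted p = 0.910 and 0.868 by limma). Of the nuclear factors, Dmrt1, which is also a spermatogonial gene, had -0.10 and Lhx9 0.15 (adjusted p = 0.902 and 0.836 by limma). Of the junction and cytoskeleton genes, the cadherin Cdh2 had -0.04 and Nectin2 -0.09 (adjusted p = 0.905 and 0.738 by limma), and both are also expressed by germ cells. Of the secreted and transport genes, Apoe, an apolipoprotein also made by macrophages and Leydig cells, had 0.50 and Defb19 0.07 (adjusted p = 0.190 and 0.928 by limma). Apoe was among the 8 genes higher at an unadjusted p under 0.05 in RNA-seq. In RNC-seq the log2 changes of Apoe and Defb19 were 0.77 and 0.65 (unadjusted p = 0.0156 and 0.0338, adjusted p = 0.735 and 0.756 by limma), and neither gene's genotypes overlapped. Those of Inha and Nectin2 were both 0.44, and those of Nrtn, Dmrt1, Lhx9 and Cdh2 were -0.03, -0.16, 0.19 and -0.16 (adjusted p between 0.771 and 0.990 for these 6 by limma). Of these 6, only Nectin2 did not overlap between genotypes (5.95 to 6.88 FPKM in Igf2bp3+/- and 7.84 to 9.23 FPKM in Igf2bp3-/-). Trf, transferrin, a classical Sertoli secretory product, was at no more than 0.0648 FPKM in any library.

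The summed Leydig, macrophage and round spermatid markers were also higher in all Igf2bp3-/- libraries of both assays, and the summed blood markers in those of RNA-seq. The summed spermatogonia markers were higher in those of RNC-seq by a small gap (7.66 to 8.19 FPKM in Igf2bp3+/- and 8.23 to 10.8 FPKM in Igf2bp3-/-). In RNA-seq the summed endothelial markers were lower in all Igf2bp3-/- libraries. The Leydig list (8 genes) summed to 15.4 to 22.6 FPKM in Igf2bp3+/- RNA-seq and 48.7 to 55.2 FPKM in Igf2bp3-/- RNA-seq, and to 6.82 to 14.3 and 51.5 to 103 FPKM in RNC-seq. All 7 tested Leydig genes were higher at an unadjusted p under 0.05 in both assays, against 10.4% (RNA-seq) and 5.36% (RNC-seq) of all genes. In RNC-seq Lhcgr passed the filter only through Igf2bp3-/- (Igf2bp3+/- mean 0.0137 FPKM). Of the 7, 4 passed the adjusted limit in RNA-seq and 1 in RNC-seq (limma), against 0.197% and 0.0787% of all genes called higher. Hsd17b3, the untested one, was at 0 in all 3 Igf2bp3+/- RNA-seq libraries. Those past the limit in RNA-seq were Hsd3b1 and Hsd3b6, which make progesterone-type steroids, the androgen enzyme Cyp17a1, and the peptide hormone Insl3, with log2 changes of 2.07, 1.22, 1.27 and 1.42 (adjusted p = 0.00315, 0.0353, 0.0189 and 0.0201 by limma). Insl3 also passed in RNC-seq, with a log2 change of 3.08 (adjusted p = 0.0104 by limma).

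The macrophage list (8 genes) summed to 5.12 to 6.26 FPKM in Igf2bp3+/- RNA-seq and 7.21 to 8.44 FPKM in Igf2bp3-/- RNA-seq, with 0 of 8 past the adjusted limit (limma) and 3 of 8 higher at an unadjusted p under 0.05. In RNC-seq it summed to 3.28 to 5.16 FPKM and 7.21 to 9.45 FPKM, with 0 of 6 past the adjusted limit (limma) and 3 of 6 higher at an unadjusted p under 0.05. Beside the counts of this and the next lists, 10.4% of all genes in RNA-seq and 5.36% in RNC-seq were higher at that unadjusted limit. The shares called higher at the adjusted limit were 0.197% and 0.0787% (limma). The blood list (5 genes) summed to 6.58 to 7.22 and 11.8 to 14.3 FPKM in RNA-seq, and of its 5 tested genes the globin Hbb-bs passed the limit (log2 change 1.23, adjusted p = 0.0353 by limma). In RNC-seq the blood list summed to 13.6 to 19.2 and 16.6 to 36.4 FPKM, which overlap, with 0 of 5 past the adjusted limit (limma) and 2 of 5 higher at an unadjusted p under 0.05. Peritubular markers (6 genes) summed to 2.03 to 2.36 and 1.85 to 2.50 FPKM in RNA-seq, endothelial markers (5 genes) to 1.66 to 1.95 and 1.20 to 1.42 FPKM, and spermatogonia markers (7 genes) to 7.22 to 10.2 and 7.38 to 9.73 FPKM. None of those 3 lists had a gene past the adjusted limit in RNA-seq or RNC-seq (limma). In RNA-seq 1 tested gene of each was lower at an unadjusted p under 0.05, where the share of all genes lower was not counted. At that limit 1 peritubular gene was higher in RNA-seq, 1 endothelial gene was higher in RNC-seq, and no other gene of the 3 lists differed. Of the germ cells' own genes, the round spermatid list summed to 673 to 792 and 888 to 1046 FPKM in RNA-seq. There, 4 of 6 were higher at an unadjusted p under 0.05 and 0 of 6 past the adjusted limit (limma). In RNC-seq it summed to 802 to 964 and 986 to 1289 FPKM, with 1 of 6 and 0 of 6 past these limits. The genotypes of this list overlapped in neither assay. Elongating spermatid markers (7 genes) summed to 9586 to 12225 and 10642 to 10798 FPKM in RNA-seq, with 0 of 7 past either limit (limma). The part of Leydig, macrophage and blood RNA in the values of Clu and Amhr2 was not tested. In bulk libraries of sorted cells, more cells of a type and more RNA per cell cannot be told apart.

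**Figure D3:**
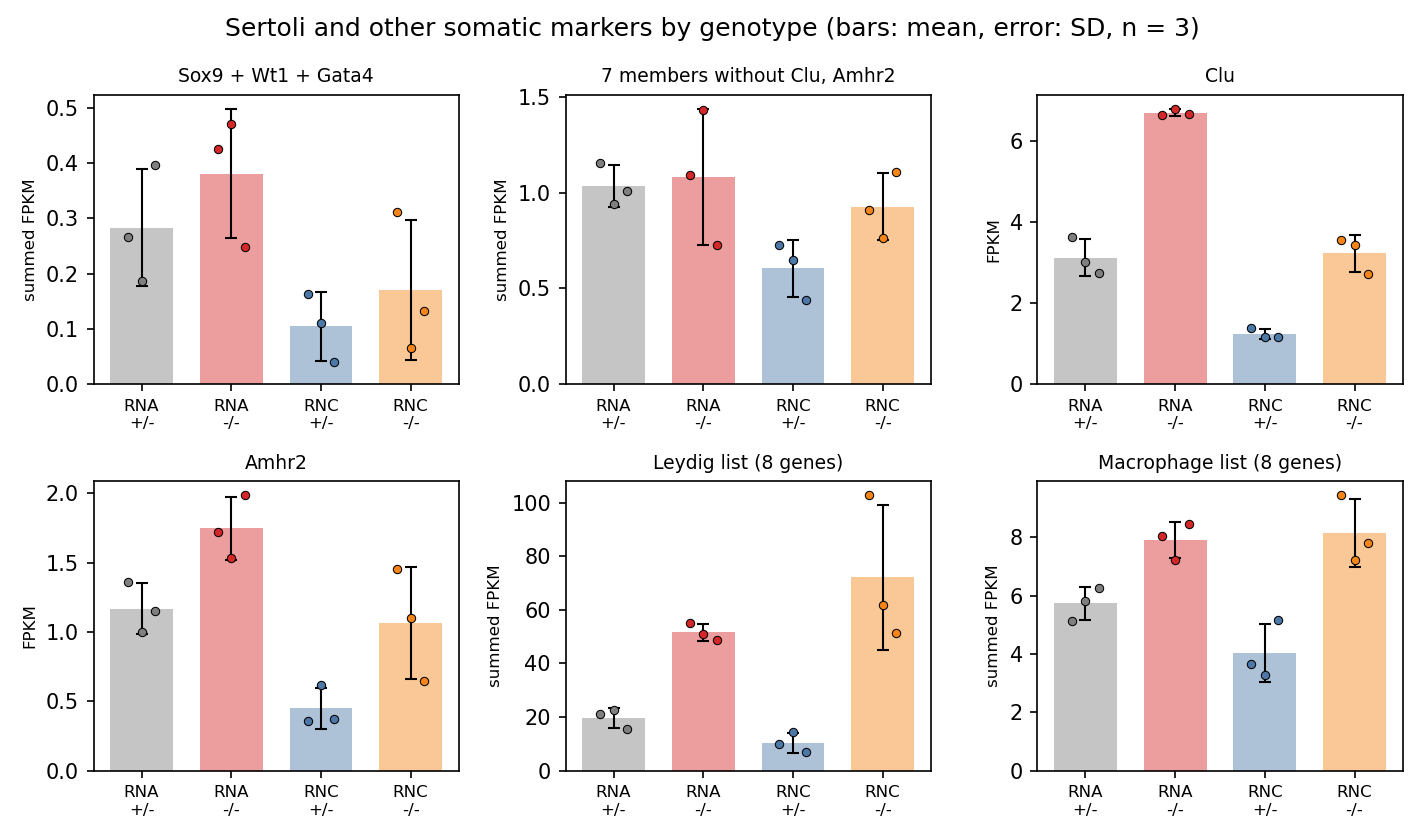
Levels of Sertoli cell genes and of 2 other somatic marker lists in FPKM (vertical axes, which start at 0 and differ between panels), by assay and genotype. Bars are means, error bars SD (n = 3) and points single libraries; Clu and Amhr2 and the Leydig and macrophage lists are higher in all Igf2bp3-/- libraries of each assay, whereas the sum of Sox9, Wt1 and Gata4 overlaps between genotypes.

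Polysome loading was compared next, as the ratio of a gene's group means, RNC-seq over RNA-seq, which the study calls translational efficiency (TE). Over all genes with a mean above 0.1 FPKM in both assays the median ratio was 0.936 in Igf2bp3+/- (18400 genes, interquartile range 0.580 to 1.45) and 0.993 in Igf2bp3-/- (18411 genes, 0.709 to 1.38). Clu had a ratio of 0.397 in Igf2bp3+/- and 0.483 in Igf2bp3-/-, at the 12.0 and 8.81 percentile. Amhr2 had ratios of 0.384 and 0.609, at the 11.2 and 16.9 percentile. Both genes thus lay under the lower quartile of all genes in both genotypes. Cldn11 had ratios of 0.516 and 0.674, at the 20.3 and 22.0 percentile and so also under the lower quartile, and Dhh ratios of 1.00 and 1.27. Rhox5 had ratios of 0.324 and 1.92, the first under the lower quartile, on values of few fragments with 0 in 5 libraries.

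In Igf2bp3+/-, Clu was lower in RNC-seq than in RNA-seq by a log2 difference of -1.26 (SE 0.18, adjusted p = 0.000128 by limma) and Amhr2 by -1.23 (SE 0.29, adjusted p = 0.00361 by limma). Those were 2 of 5 tested members, and 25.2% of the 18414 genes tested were called lower. In Igf2bp3-/-, Clu was lower by -1.04 (SE 0.18, adjusted p = 0.00123 by limma), 1 of 5 members against 14.0% of all genes, and Amhr2 had a difference of -0.72 (adjusted p = 0.0798 by limma). The remaining 3 tested members passed the limit in neither genotype. The median difference of the tested members was -1.06 in Igf2bp3+/-, which is the value of Rhox5 (95% interval -2.61 to 0.50), and -0.61 in Igf2bp3-/-. Over all 9 members without the filter the medians were -0.63 and -0.52, and with a pseudocount of 1 those of the tested members were -0.18 and -0.13. In the filtered fit, all genes tested had medians of -0.10 and -0.04; centring each library moved the first of these to 0.07. RNC-seq is scaled to its own total, so the differences are relative to the other genes of each assay.

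The genotype difference in TE, the interaction of genotype and assay, was not past the limit for any of the 5 tested members (limma), and 1 of 18414 genes, 0.00543%, was called. At an unadjusted p under 0.05, 0 of 5 members were higher, against 5.54% of all genes. The interaction was 0.22 for Clu (95% interval -0.32 to 0.77, adjusted p = 0.833 by limma) and 0.51 for Amhr2 (95% interval -0.36 to 1.38, adjusted p = 0.773 by limma). For Dhh it was 0.26, for Cldn11 0.03 and for Rhox5 1.74, the last with a 95% interval of -0.47 to 3.94. The median of the 5 was 0.26 and that of all 9 without the filter 0.0263, where all genes had a median of 0.06, or -0.07 with each library centred. The intervals span changes of TE in either direction. The loading and TE fits treat RNA-seq and RNC-seq as independent, although both were made from shared extracts.

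**Figure D4:**
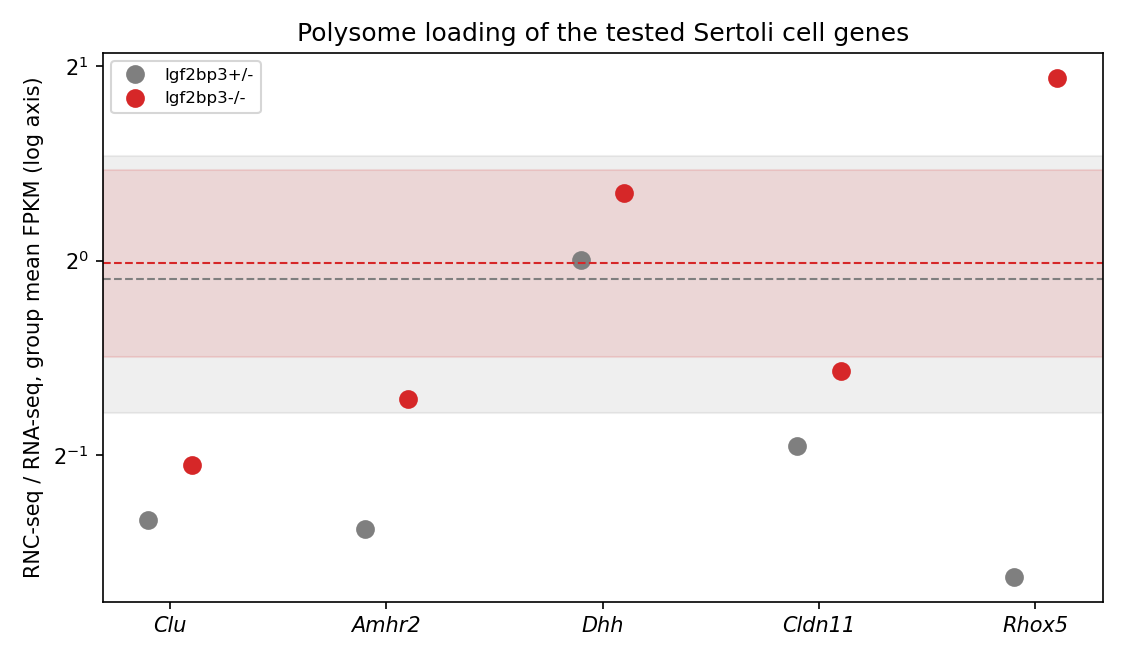
Polysome loading, the RNC-seq group mean over the RNA-seq group mean (vertical log axis), for the 5 Sertoli cell genes that passed the filter in both assays, in Igf2bp3+/- (grey) and Igf2bp3-/- (red). Dashed lines are the medians of all genes (0.936 and 0.993) and shaded bands their interquartile ranges; Clu, Amhr2 and Cldn11 lie below the band of their own genotype in both genotypes, and Rhox5 does in Igf2bp3+/-.

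Correlation between the members across libraries was uneven. Each member's log2 values were compared with the mean of the 6 members whose average over all libraries was above 0.1 FPKM. Over the 12 libraries, which fall into 4 groups and share them for every gene, Pearson's r was 0.91 for Clu, 0.89 for Amhr2, 0.70 for Sox9, 0.51 for Cldn11, 0.36 for Rhox5 and -0.11 for Dhh, each member being part of that mean. Between pairs of members, r was 0.92 for Clu and Amhr2, 0.60 for Sox9 and Clu and 0.02 for Sox9 and Cldn11. Sox9, Cldn11 and Rhox5 were at 0 in 2, 1 and 5 of the 12 libraries and rest on few fragments. A low r of these genes therefore cannot show whether they vary with the others. Among 12263 other genes with a mean of at least 1 FPKM, those most like the mean of the members were Ndfip2 (r = 0.93), Smpd2 (0.92), Yipf6 (0.92), Mageb3 (0.92) and Gm9869 (0.92). Those most like Clu were Acsbg1 (r = 0.99), Gsn (0.97) and Rbbp7 (0.96). These correlations describe 12 libraries that differ by genotype and assay.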

How the data were processed

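The authors deposited 1 table of FPKM per gene symbol for 12 libraries, made with Trim Galore 0.6.6, HISAT2 and StringTie 2.1.7 on GRCm38, per the labels and the study's methods. Labels and methods describe different library kits, and strand use is not given in the sources used here. Columns named WT are Igf2bp3+/- libraries. Of 28668 symbols, 25 turned into dates were left out. Of 28643 symbols, 27839 matched GENCODE M21.

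Values were analysed as log2(FPKM + 0.1), which understates changes of low genes, with limma 3.58.1 in R 4.3.3 (intensity trend, two-sided, Benjamini-Hochberg over all genes with a mean FPKM above 0.1, limit 0.05), tested on simulated data. Genotype was tested over the 6 libraries of each assay, and TE and loading over all 12. The filter used the mean over both genotypes, so a gene could pass it through the higher genotype alone. For genotype within an assay, shares of all genes were counted in the higher direction only. Depth is unknown without counts. Labels do not say that replicates are separate animals, so p-values measure the spread between libraries.

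The members and gene lists were chosen with earlier results of these data known. All 9 members are named, as are list genes past the limit (at most 5 a list), the 2 most abundant of each Sertoli sub-list and the genes most correlated. Trf, Sparc, Cst9, Serpina5, Cxcl12, Nr0b1, Lhcgr, Hsd17b3, Acrv1 and Catsper3 were named after their values were seen. Amh, Inhbb, Ocln and Cdh5 were not analysed here. Alternatives varied the pseudocount, filter, scaling, weights, trend, criterion, libraries and replicate block.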

Additional observations from a re-analysis of the deposited data

How the results depend on the processing

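The count of 1 member past the limit in RNA-seq fell to 0 without a filter, without the intensity trend, at an unadjusted p under 0.05 with an absolute log2 change over 1.5, and with the replicate block (Clu adjusted p = 0.137 by limma), and was between 0 and 1 with 1 library left out. By the methods RNA-seq and RNC-seq were made from shared extracts, but the labels do not say that replicate numbers match between assays. Deviations of same-numbered libraries correlated between -0.055 and 0.078 across assays, and between -0.017 and 0.144 across genotypes. The block changed no other call. In RNC-seq the count rose from 0 to 1 (Clu) with a fit over all 12 libraries. For loading, the count of 2 in Igf2bp3+/- became 1 above a mean FPKM of 1 and 0 under the log2 criterion, and the count of 1 in Igf2bp3-/- became 2 (Clu and Amhr2) with a pseudocount of 1, 0 under the log2 criterion, and between 1 and 2 with 1 library left out, 2 being without Igf2bp3-/- RNC-seq replicate 1. The study's methods give the fold threshold as 1.5 on the log2 scale and its appendix as log2 of 1.5. Under the second reading, added after seeing the data, the counts were 1 in RNA-seq, 2 in RNC-seq (Clu and Amhr2), 0 for TE, and 2 for loading in each genotype. The members' median log2 change depended on the pseudocount and filter. With a pseudocount of 1 it was 0.0943 in RNA-seq, 0.21 in RNC-seq, 0.0736 for TE, -0.18 for loading in Igf2bp3+/- and -0.13 in Igf2bp3-/-. With a pseudocount of 0.01 it was 1.27 in RNC-seq, 0.58 for TE and -1.39 for loading in Igf2bp3+/-. Without a filter it was 0.21 in RNA-seq, 0.25 in RNC-seq, 0.0263 for TE, and -0.63 and -0.52 for loading in Igf2bp3+/- and Igf2bp3-/-. Above a mean FPKM of 1 it was 0.82 in RNA-seq (2 members), and with Clu alone 1.31 in RNC-seq, -1.26 for loading in Igf2bp3+/- and -1.04 in Igf2bp3-/-. It was 0.80 in RNC-seq with centred libraries, 0.78 with library weights, and -0.86 and -0.39 for loading in Igf2bp3+/- and Igf2bp3-/- under quantile normalization. With 1 library left out it lay between 0.24 and 0.46 in RNA-seq, 0.74 and 1.13 in RNC-seq, 0.11 and 0.41 for TE, -1.14 and -0.85 for loading in Igf2bp3+/-, and -0.63 and -0.18 in Igf2bp3-/-. The values that changed sign all had an adjusted p of at least 0.481 (limma). Dhh in RNC-seq was 0.0766 with library weights. Cldn11 in TE was -0.0102 with a pseudocount of 1, -0.10 with centred libraries and -0.0499 under quantile normalization. Dhh loading in Igf2bp3+/- was 6.14e-05 with a pseudocount of 1, 0.16 with centred libraries and 0.28 under quantile normalization. With 1 library left out these 3 lay between -0.33 and 0.0591, -0.40 and 0.45, and -0.15 and 0.24. Of 463 single-gene values under an alternative, 438 kept their direction and side of the limit, 15 changed sign, 7 lost and 3 gained a call; the cause was not tested. Low fragment numbers limit every member other than Clu. For Amhr2 they were roughly 50 to 162 in RNA-seq and 12 to 66 in RNC-seq, and for Dhh 16 to 49 over both assays.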
